A study of Mus musculus with 7 samples.

Results

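The mitochondrial carrier family comprises the genes whose symbol is Slc25a followed by a number. This rule found 41 of the 14641 genes in the count table, and all 41 had enough reads to be tested. RNA was measured in whole heart lysates of male mice on the C57BL/6J strain, with 4 libraries from non-transgenic littermates (NTG, libraries 1 to 4) and 3 from mNrf2-TG mice (libraries 17 to 19). mNrf2-TG mice carry full-length mouse Nrf2, the transcription factor of the antioxidant response, under the αMHC promoter. That promoter is active in cardiomyocytes, whereas the lysate also holds RNA of other cell types. The label of the mNrf2-TG libraries gives an age of 6 months and the design text gives 7 to 8 months for the mice. The labels of the NTG libraries give no age, so they do not show whether the groups were matched. The methods of the paper give 6 to 7 months for mice of both genotypes. The sources used here do not tie each library to a mouse of its own, so the p-values measure only the spread between these libraries, which may be technical.

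Mitochondrial carriers are membrane proteins built from repeats of one fold, and most of them sit in the inner mitochondrial membrane, which is closed to charged solutes. Each carrier exchanges or moves a small set of molecules, such as ADP for ATP, phosphate, carboxylic acids, amino acids, acylcarnitines, cofactors or iron. In the heart the exchange of ADP for ATP supplies the contractile apparatus, and the carnitine/acylcarnitine carrier brings in fatty acids for oxidation. Members outside the inner membrane include Slc25a46, a protein of the outer membrane, and Slc25a17, a carrier of peroxisomes.

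The total count per library ranged from 6534683 to 8405857. As a check of the genotype labels, Nfe2l2, the gene of Nrf2, had between 729 and 1392 reads in NTG against 10912 to 12839 with the transgene (Log2FC 3.36 ± 0.18 SE, edgeR, adjusted p = 2.96e-06). NTG 3 stood apart from the other control libraries. Its distance to them over all genes, computed on log2 normalised counts, was 76.5 to 80.2, whereas the other NTG libraries were 59.2 to 66.9 from each other. All 8 cardiomyocyte markers examined were present, and their summed normalised counts were 663414 to 699687 in NTG and 575930 to 612870 in mNrf2-TG. Normalised read counts here are counts scaled with TMM factors to the mean library size, and Log2FC is the log2 fold change of mNrf2-TG over NTG.

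Carrier transcripts spanned a wide range of levels in the NTG heart. Levels between genes were compared as TMM-scaled RPKM, that is, counts divided by library size and by the length of the exons. Slc25a4, the ADP/ATP exchanger of heart and skeletal muscle, stood at 2579 ± 115 in NTG (SD, n = 4) and at 2164 ± 156 in mNrf2-TG (SD, n = 3). The next level in NTG was that of Slc25a11, the oxoglutarate carrier of the malate-aspartate shuttle, at 346 ± 10.2. Slc25a3, the phosphate carrier, followed at 159 ± 3.44. Slc25a5, the second ADP/ATP exchanger, at 116 ± 10.1, and Slc25a34, a carrier of less defined substrate, at 100.4 ± 9.5, overlapped between NTG libraries, so their order is not resolved. In mNrf2-TG, Slc25a5 stood at 149 ± 9.98 and Slc25a34 at 72.2 ± 10.5, and these did not overlap. Slc25a13, Slc25a39, Slc25a20, Slc25a12 and Slc25a46 completed the first 10 in NTG, with levels from 60.2 to 24.9, and of these neighbours Slc25a13 and Slc25a39 overlapped. Slc25a46, in the last of these places, also overlapped with the next gene, Slc25a33 (24.9 ± 1.52 against 23.4 ± 10.1), so that place is not resolved. The same genes made up the first 10 with the longest annotated transcript as gene length. At the other end, Slc25a18, Slc25a31 and Slc25a53 had a mean count under 10.

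**Figure D1:**
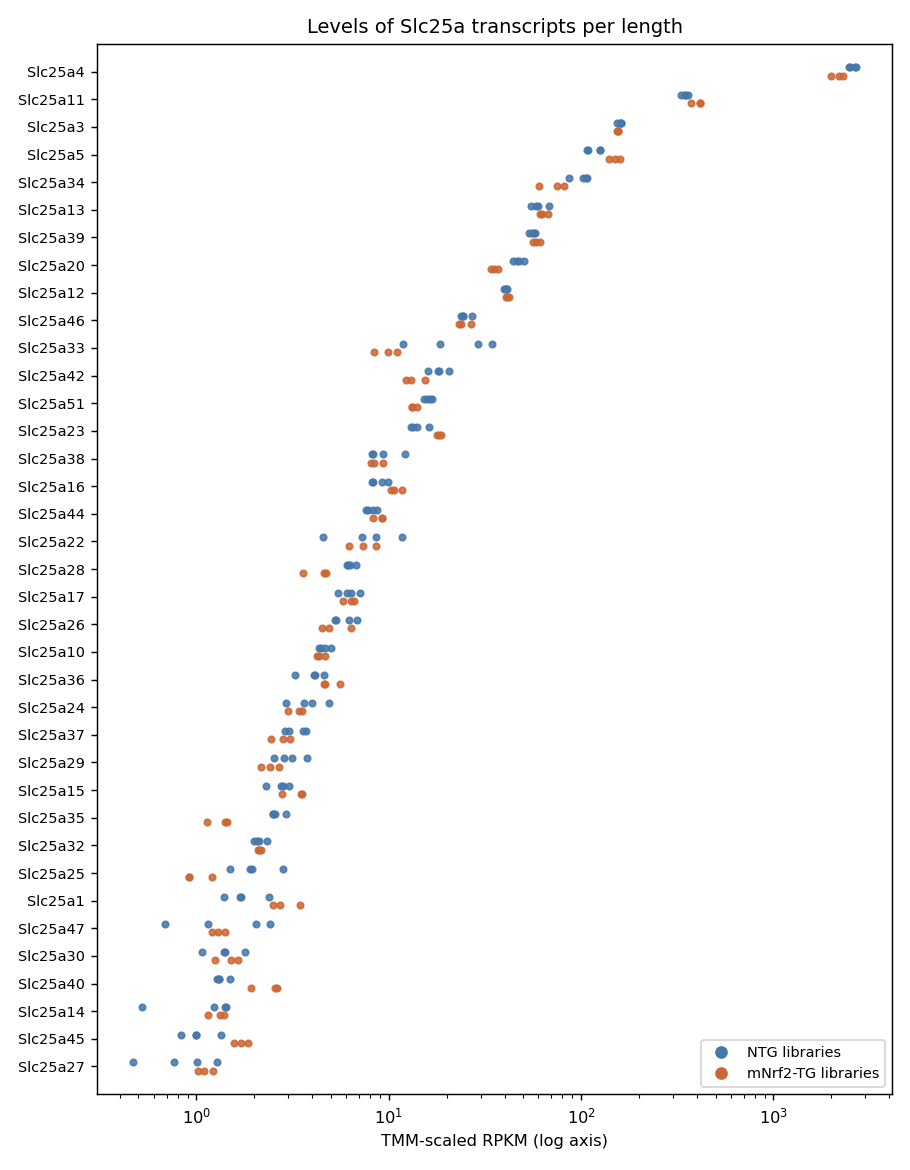
TMM-scaled RPKM (log axis) of 37 carrier genes with a mean count of 10 or more, in order of their NTG mean, with 1 point per library (blue, 4 NTG, orange, 3 mNrf2-TG). Slc25a4 lies above all other members in every library, and Slc25a40 near the lower end shows mNrf2-TG points to the right of all NTG points.

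The family as a whole took 0.985% ± 0.0393 of all counts in NTG and 0.907% ± 0.0602 in mNrf2-TG. The share was 0.984%, 1.01%, 0.930% and 1.01% in NTG 1 to 4 and 0.917%, 0.842% and 0.961% in mNrf2-TG 17 to 19, so the groups overlapped on this scale. As a share of the TMM-scaled library size, the scale of the normalised counts, it was 0.982%, 1.02%, 0.962% and 1.01% in NTG and 0.912%, 0.841% and 0.934% in mNrf2-TG, and the groups did not overlap (0.994% ± 0.0264 against 0.896% ± 0.0485). Slc25a4 alone made up between 60.0% and 62.3% of the family's counts in NTG but 55.8% to 57.9% with the transgene, without overlap. Without Slc25a4, the rest of the family took 0.384% ± 0.0101 of all counts, without TMM scaling, in NTG and 0.391% ± 0.0168 in mNrf2-TG.

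The transgenic hearts differed from NTG in 13 of the 41 carriers at an adjusted p under 0.05, of which 9 were lower and 4 higher. The lower carriers were Slc25a4, Slc25a20, Slc25a25, Slc25a28, Slc25a33, Slc25a34, Slc25a35, Slc25a42 and Slc25a51, and the higher ones Slc25a5, Slc25a11, Slc25a23 and Slc25a40. The called members made up 31.7% of the family, against 17.2% of all 14637 genes tested by edgeR. Lower members were 22.0% of the family against a background of 8.73%, and higher members 9.76% against 8.48%. As 38 of the 41 carriers had a mean count of 10 or more, the background was also taken over such genes, of which 20.1% were called and 10.4% were lower. Normalised counts of the groups did not overlap for 18 carriers (43.9%, background 29.7%), 9 in each direction, and these included all 13 called. The median Log2FC was -0.0055 over the members and 0.0012 over all genes, and the median size of the Log2FC was 0.26 in both. Folds over 2 among called members were seen for Slc25a33 and Slc25a25, both lower.

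Many of these calls lay close to the threshold. Leaving out mNrf2-TG 17 left 1 higher and 4 lower carriers called, leaving out mNrf2-TG 18 left 3 and 3, leaving out mNrf2-TG 19 left 2 and 6, leaving out NTG 1 left 3 and 5, and leaving out NTG 2 left 2 and 4. Without NTG 3, 3 higher and 9 lower carriers were called, and without NTG 4, 5 and 7. Slc25a35, Slc25a40, Slc25a20 and Slc25a28 were called in every one of these fits and under every other setting tried. The number called over all genes moved as well. It was 2519 with all libraries, 1603 without NTG 1, 1597 without NTG 2, 2950 without NTG 3 and 2143 without NTG 4. Whether carriers lost calls more readily than other genes was not tested. The 3 uncalled members nearest to the threshold were Slc25a45 (Log2FC 0.71, edgeR, adjusted p = 0.0503), Slc25a1 (0.69, adjusted p = 0.0594) and Slc25a16 (0.29, adjusted p = 0.0645).

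**Figure D2:**
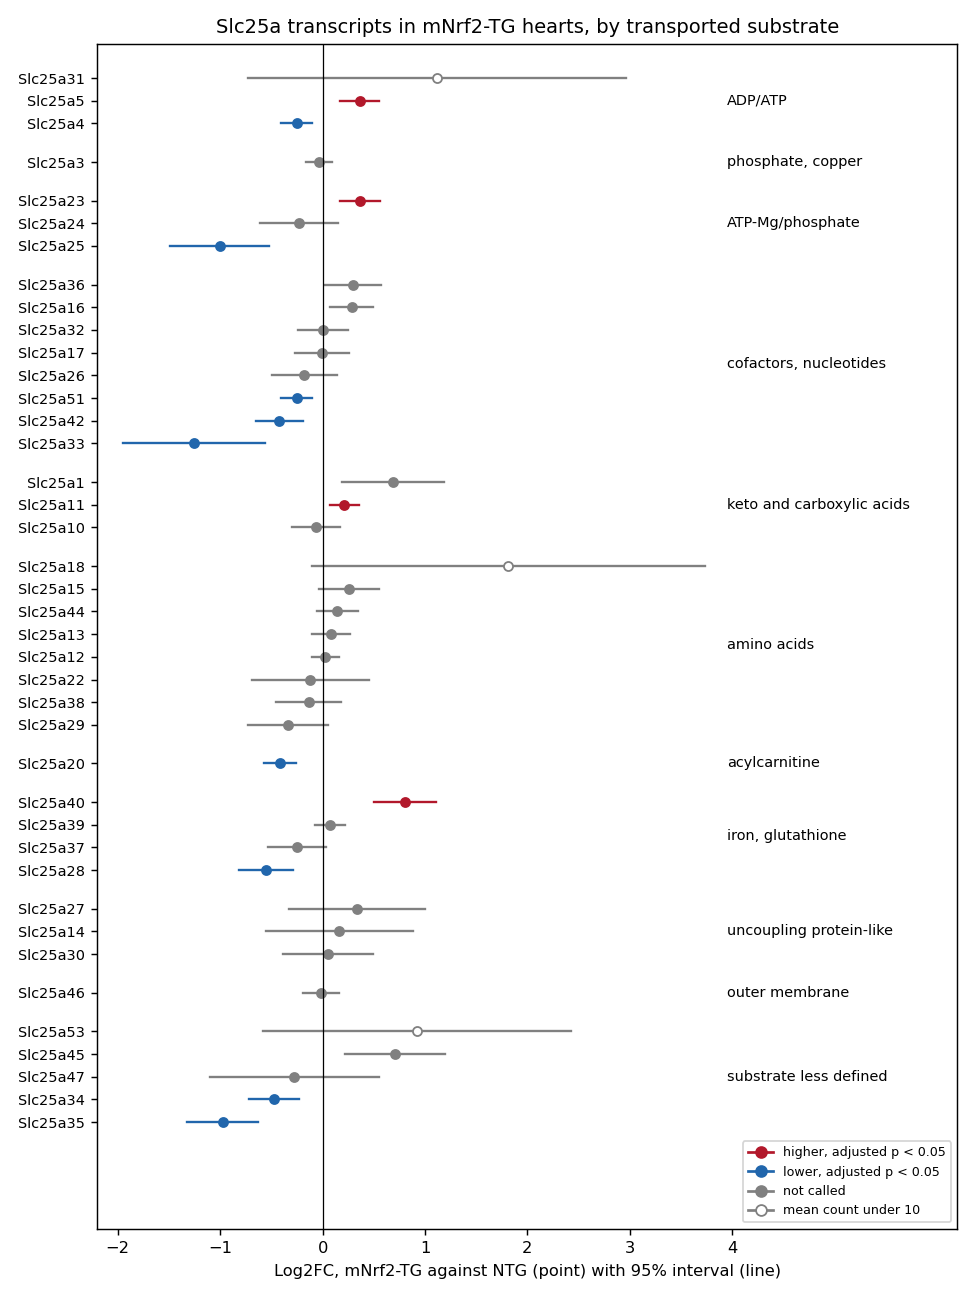
Log2FC of 40 carriers, mNrf2-TG against NTG (points), with its 95% interval (lines), grouped by transported substrate, with red for higher and blue for lower at an adjusted p under 0.05, grey for not called and open points for a mean count under 10. Called members of both directions stand side by side in the ADP/ATP, ATP-Mg/phosphate and iron and glutathione groups. The 3 called cofactor carriers are all lower, and so small a group gives no result as a set.

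The promoter windows of the members were searched for the core of the antioxidant response element (ARE), the DNA element to which Nrf2 binds with small Maf proteins. The letters searched were TGACNNNGC on both strands, in windows of 300 bases around the gene starts of RefSeq (GRCm38.p6), and 32 of the 41 members had at least 1 window. The core was found in 9 of these 32 genes (28.1%), against 16.65% of the 11680 genes of the count table with a window. It was present for 3 of the 4 higher members (Slc25a5, Slc25a23 and Slc25a40), for 2 of the 7 lower members with a window (Slc25a25 and Slc25a33) and for 4 of the 21 uncalled ones (Slc25a3, Slc25a14, Slc25a38 and Slc25a53). These shares were not tested, and sets so small give no result on the core and the direction of a change. The element of estrogen-related receptors, factors known for the control of mitochondrial genes in the heart, was searched as TCAAGGTCA on both strands. It was found in 0 of the 32 members and in 0.31% of the genes of the count table. At so low a share, 0 of 32 carries no information. The same bases cannot match both motifs. A match is a description of letters and not evidence of binding. Shown are the stretches with a match from the 3 higher members and from Slc25a25, the member with a pair of matches, each read along the strand of its gene with the ARE core in capitals. The stretch of Slc25a40 lies at chr5:8422791-8422887 (+), that of Slc25a5 at chrX:36795445-36795545 (+), that of Slc25a23 at chr17:57059919-57060019 (-) and that of Slc25a25 at chr2:32451447-32451616 (-). Capitals starting with GC are the core read on the other strand.
Slc25a40: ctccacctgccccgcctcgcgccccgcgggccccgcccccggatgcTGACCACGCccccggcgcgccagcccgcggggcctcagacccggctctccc
Slc25a5: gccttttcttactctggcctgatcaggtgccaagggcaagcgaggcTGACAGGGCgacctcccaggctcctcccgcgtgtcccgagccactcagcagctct
Slc25a23: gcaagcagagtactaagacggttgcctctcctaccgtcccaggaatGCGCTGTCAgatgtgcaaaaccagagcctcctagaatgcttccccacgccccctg
Slc25a25: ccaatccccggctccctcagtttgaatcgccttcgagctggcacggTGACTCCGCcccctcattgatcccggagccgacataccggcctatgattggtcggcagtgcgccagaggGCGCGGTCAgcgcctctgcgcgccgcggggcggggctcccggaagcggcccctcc

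Of the ADP/ATP exchangers, Slc25a4 was lower and Slc25a5 higher in the transgenic hearts. Slc25a4 (GRCm38 chr8:46206797-46211284, - strand) had normalised counts of 44322, 47734, 43561 and 47083 in NTG 1 to 4 and of 38929, 35316 and 40730 in mNrf2-TG 17 to 19. Every transgenic library lay below every NTG library, although the gap between the nearest of them was small beside the level. The mean was 45675 ± 2043 in NTG and 38325 ± 2757 in mNrf2-TG (Log2FC -0.25 ± 0.068 SE, edgeR, adjusted p = 0.0310). This call was lost when the library total alone set the scale (adjusted p = 0.0692) and without NTG 1, NTG 2, NTG 4, mNrf2-TG 17 or mNrf2-TG 18 (edgeR, adjusted p between 0.069 and 0.106). Cardiomyocyte markers moved in the same direction, with Tnni3, Pln and Mb lower among the 8 listed, none higher and a median Log2FC of -0.24, and their part in the result was not tested. In whole heart lysate, fewer cells of a type and less RNA per cell cannot be told apart.

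Slc25a5 (chrX:36795651-36798807, + strand), the exchanger of many other tissues, had normalised counts of 1339, 1326, 1545 and 1552 in NTG and of 1967, 1867 and 1721 in mNrf2-TG. The groups did not overlap, with means of 1440 ± 125 and 1852 ± 124 (Log2FC 0.36 ± 0.084 SE, edgeR, adjusted p = 0.0174). Without mNrf2-TG 17 or mNrf2-TG 18 its adjusted p in edgeR was 0.0735 and 0.0547. Other annotated genes held 33.8% of the 50-base stretches of its exons, so that reads could be split between near-identical copies and its count is uncertain. Slc25a4 shared none. Markers of fibroblasts and macrophages were higher in the same libraries. For fibroblasts 3 of 5 were higher and none lower, with summed normalised counts of 7590 to 9879 in NTG and 10648 to 11216 in mNrf2-TG. Macrophage markers were higher for 3 of 5, with sums of 971 to 1414 and 1676 to 2327, and the part of either cell type in the result for Slc25a5 was not tested. The third exchanger, Slc25a31, which is known from the testis, had at most 7 reads in NTG libraries and at most 11 in transgenic ones.

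The 2 exchangers were also compared with each other within each library, in a ratio that needs no scaling. Slc25a5 gave 2.93%, 2.70%, 3.42% and 3.19% of the counts of the pair in NTG 1 to 4 and 4.81%, 5.02% and 4.05% in mNrf2-TG 17 to 19. These shares did not overlap. That follows from the separation of both genes in opposite directions given above, so the test of this ratio is no further support. The log2 ratio of Slc25a5 to Slc25a4 was 0.62 higher in mNrf2-TG (two-sided exact permutation test, p = 0.0286, the smallest that 4 against 3 libraries allow), and p was 0.0571 after adjustment over the 4 ratios examined. Slc25a40 gave 6.59%, 6.82%, 7.61% and 6.50% of the counts of Slc25a40 and Slc25a39 in NTG and 11.5%, 12.2% and 9.04% in mNrf2-TG, a difference of 0.72 in the log2 ratio with the same exact p of 0.0286 and adjusted p of 0.0571. The ratios of Slc25a13 to Slc25a12 (0.06, exact p = 0.543, adjusted p = 0.543) and of Slc25a37 to Slc25a28 (0.32, exact p = 0.143, adjusted p = 0.19) overlapped between the groups. No ratio passed the threshold after adjustment.

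**Figure D3:**
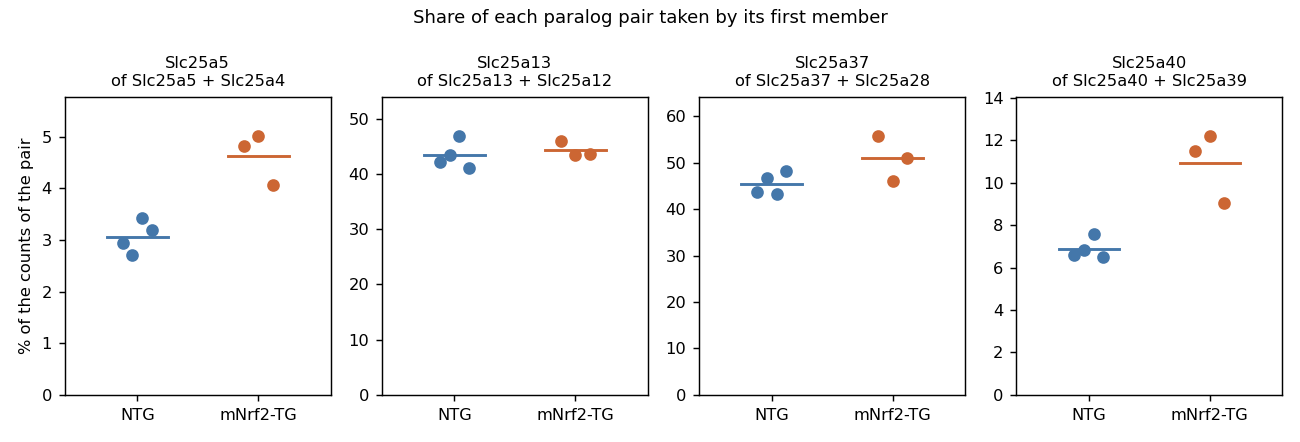
Share of the raw counts of a pair of related carriers that fell on its first member, in percent, with 1 point per library and a line at the group mean (blue, 4 NTG, orange, 3 mNrf2-TG, axes starting at 0). The points of Slc25a5 and of Slc25a40 do not overlap between the groups, and those of Slc25a13 and Slc25a37 do.

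Slc25a3, which imports phosphate for ATP synthesis and also carries copper, had normalised counts of 6718, 6648, 6731 and 6421 in NTG and of 6437, 6465 and 6497 in mNrf2-TG. The libraries overlapped, and the Log2FC was -0.04 with a 95% interval from -0.16 to 0.09.

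The carriers of ATP-Mg and phosphate, which are activated by calcium and adjust the adenine nucleotide pool of the matrix, moved in opposite directions. Slc25a23 had normalised counts of 556, 535, 520 and 648 in NTG and of 745, 713 and 725 in mNrf2-TG, and every transgenic library lay above every NTG library. Its mean rose from 565 ± 57.7 to 728 ± 15.8 (Log2FC 0.37 ± 0.086 SE, edgeR, adjusted p = 0.0180). Without NTG 2, mNrf2-TG 17 or mNrf2-TG 19 the adjusted p in edgeR was 0.051, 0.067 and 0.0501. Gm17168 on the opposite strand shares 168 bases with exons of Slc25a23. Slc25a25 (chr2:32414487-32451445, - strand) fell from 121 ± 33 to 59.9 ± 9.64 (Log2FC -1.01 ± 0.22 SE, edgeR, adjusted p = 0.0124). Its normalised counts were 167, 88.2, 112 and 115 in NTG and 71, 54.2 and 54.5 in mNrf2-TG, where NTG 1 was the highest and NTG 2 the nearest to the transgenic libraries. Without mNrf2-TG 18 or mNrf2-TG 19 the adjusted p in edgeR was 0.0506 and 0.0519. Exons of Slc25a25 share 379 bases with Naif1 on the opposite strand, whose Log2FC was -0.10. Slc25a24 was not called (Log2FC -0.23, 95% interval from -0.61 to 0.15).

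Of 9 carriers of cofactors and nucleotides, 3 fell (33.3%). The background was 8.73% of all genes tested and 10.4% of those with a mean count of 10 or more. By limma-voom 2 of the 9 were called, and so small a set gives no result for the group. At a background of 8.48% for higher genes, 0 higher among so few carries no information either. The lower ones were Slc25a42, which carries coenzyme A, Slc25a51, which carries NAD+, and Slc25a33, which carries pyrimidine nucleotides. Slc25a42 had normalised counts of 825, 814, 726 and 926 in NTG and of 590, 555 and 697 in mNrf2-TG, without overlap (823 ± 81.9 against 614 ± 74.2, Log2FC -0.42 ± 0.10 SE, edgeR, adjusted p = 0.0222). Its call was lost without NTG 1, NTG 2, NTG 4, mNrf2-TG 17 or mNrf2-TG 18, at an adjusted p in edgeR between 0.0507 and 0.0849.

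Slc25a51 had the smaller change, from 693, 683, 654 and 635 in NTG to 583, 547 and 547 in mNrf2-TG. The libraries within each group lay close together (666 ± 26.6 against 559 ± 20.8, Log2FC -0.25 ± 0.069 SE, edgeR, adjusted p = 0.0328). It was not called with the library total as the scale (adjusted p = 0.0611), nor without NTG 1, NTG 2, mNrf2-TG 17, mNrf2-TG 18 or mNrf2-TG 19 (edgeR, adjusted p between 0.0598 and 0.108). Gm25692 on the same strand shares 125 bases with exons of Slc25a51.

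Slc25a33 (chr4:149744036-149774277, - strand) had the largest fitted decrease of the called members. Among the 32 members with a mean count of 50 or more it was also the most variable between NTG libraries, with a coefficient of variation of 43.3% against a median of 8.91%. Its normalised counts were 261, 413, 487 and 169 in NTG and 119, 141 and 157 in mNrf2-TG. NTG 4 therefore lay just above the highest transgenic library, while NTG 3 was the farthest from them. The mean fell from 332 ± 144 to 139 ± 18.9 (Log2FC -1.26 ± 0.31 SE, edgeR, adjusted p = 0.0226). limma-voom gave an adjusted p of 0.0503, and without NTG 2, mNrf2-TG 17, mNrf2-TG 18 or mNrf2-TG 19 edgeR gave an adjusted p between 0.0558 and 0.0896. Gm13068 on the opposite strand shares 281 bases with exons of Slc25a33, so its count is uncertain there.

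The other 6 cofactor and nucleotide carriers were not called. Slc25a16, linked to coenzyme A, and Slc25a36, which carries pyrimidine nucleotides like Slc25a33, had Log2FCs of 0.29 and 0.30, and their groups did not overlap. Slc25a26, which carries S-adenosylmethionine, Slc25a32, linked to folate and FAD, and the peroxisomal Slc25a17 had Log2FCs between -0.18 and 0.0034.

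Among the carriers of keto and carboxylic acids, Slc25a11 was higher. Its normalised counts were 5703, 5304, 5520 and 5538 in NTG and 6613, 5921 and 6658 in mNrf2-TG. The groups did not overlap, with mNrf2-TG 18 nearest to NTG (5516 ± 164 against 6397 ± 413, Log2FC 0.21 ± 0.066 SE, edgeR, adjusted p = 0.0498). The call was lost on leaving out any library other than mNrf2-TG 18, with an adjusted p in edgeR between 0.0562 and 0.153. DESeq2 size factors in edgeR gave 0.0526 as the adjusted p. Rnf167 on the opposite strand, whose Log2FC was -0.12, shares 189 bases with exons of Slc25a11. Slc25a1, which exports citrate for lipid synthesis, had normalised counts between 22.7 and 38.8 in NTG against 40.9 to 56.3 in the transgenic hearts and was not called in the fit of all libraries. Slc25a10, the dicarboxylate carrier, had a Log2FC of -0.07 with a 95% interval from -0.30 to 0.17.

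Of the 8 amino acid carriers, 0 were called by edgeR, DESeq2 or limma-voom, and 0 had an unadjusted p under 0.05 in edgeR. At a background of 17.2% called by edgeR, 0 among so few carries no information on the group. The partners of Slc25a11 in the malate-aspartate shuttle, Slc25a12 and Slc25a13, exchange aspartate for glutamate and are regulated by calcium. Slc25a12 had normalised counts of 2288, 2239, 2189 and 2242 in NTG and of 2247, 2274 and 2322 in mNrf2-TG (Log2FC 0.03, 95% interval from -0.10 to 0.16). Slc25a13 had 1664, 1713, 1938 and 1566 in NTG and 1917, 1741 and 1796 in mNrf2-TG (Log2FC 0.08, 95% interval from -0.10 to 0.26). Both overlapped between the groups, and the intervals leave room for changes of this small size in either direction. The glutamate carrier Slc25a22 varied from 204 to 531 between NTG libraries, so that its 95% interval ran from -0.69 to 0.45. Slc25a15, Slc25a29, Slc25a38 and Slc25a44, which carry ornithine, basic amino acids, glycine and branched-chain amino acids, had Log2FCs from -0.34 to 0.26. Slc25a18 had at most 2 reads in NTG libraries and between 2 and 4 in transgenic ones, which is too few reads for a fold. Of the 8, it alone did not overlap between the groups.

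Slc25a20, the carnitine/acylcarnitine carrier of fatty acid oxidation, was lower in the transgenic hearts, and its call did not depend on any library. Its gene lies at chr9:108662088-108684641 on the + strand. Normalised counts were 1846, 1742, 1618 and 1686 in NTG and 1282, 1241 and 1354 in mNrf2-TG. The lowest NTG library was well above the highest transgenic one, and the mean fell from 1723 ± 96.4 to 1293 ± 57.1 (Log2FC -0.41 ± 0.071 SE, edgeR, adjusted p = 0.00483). Leaving out single libraries moved the Log2FC between -0.45 and -0.37. Other annotated genes shared 5.61% of its 50-base stretches.

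Of the carriers tied to iron and glutathione, Slc25a40 was higher and Slc25a28 lower, whereas their paralogs Slc25a39 and Slc25a37 were not called. Slc25a40 (chr5:8422850-8454797, + strand) is a close relative of Slc25a39, which is needed for the import of glutathione into mitochondria. Its normalised counts were 82.7, 81, 94.9 and 82.6 in NTG and 166, 162 and 121 in mNrf2-TG. All transgenic libraries were above NTG, with mNrf2-TG 19 the lowest of them, and the mean rose from 85.3 ± 6.42 to 149 ± 24.9 (Log2FC 0.80 ± 0.14 SE, edgeR, adjusted p = 0.00474). This was the largest increase among the called members. The promoter stretch printed above holds an ARE core that begins at the last base before the RefSeq start of the gene. The lower members Slc25a25 and Slc25a33 also had a core, and its part in any change was not tested. Slc25a39, which is expressed at a far higher level per length (55.7 ± 1.7 against 1.35 ± 0.102 in NTG), had normalised counts of 1173, 1107, 1152 and 1188 in NTG and of 1273, 1160 and 1214 in mNrf2-TG (Log2FC 0.07, 95% interval from -0.07 to 0.22).

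Slc25a28 and Slc25a37 are the mitoferrins, which bring iron into the matrix for heme and iron-sulfur clusters, and Slc25a37 is known above all from developing red blood cells. Slc25a28 (chr19:43663801-43674881, - strand) had normalised counts of 178, 191, 171 and 174 in NTG and of 101, 130 and 133 in mNrf2-TG. The groups were well apart, and the mean fell from 179 ± 8.62 to 122 ± 17.7 (Log2FC -0.55 ± 0.12 SE, edgeR, adjusted p = 0.0117). Slc25a37 had 138, 167, 131 and 162 in NTG and 128, 111 and 139 in mNrf2-TG, which overlapped (Log2FC -0.25, 95% interval from -0.53 to 0.04). Of 7 red blood cell entries, 0 were called by edgeR, with 1 at an unadjusted p under 0.05, and 1 was called by DESeq2, while their sums were 3451 to 5425 in NTG and 2351 to 5248 in mNrf2-TG.

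Of the 5 carriers with less defined substrates, 2 were lower, against a background of 8.73% of all genes tested. So small a set gives no result for the group. Slc25a35 (chr11:68968131-68974365, + strand) had the lowest p-value in the family. Its normalised counts were 69, 71.1, 69.1 and 80.6 in NTG and 39.8, 31.5 and 39 in mNrf2-TG. The groups lay far apart for a gene with 32 to 81 raw counts per library, and the mean fell from 72.4 ± 5.55 to 36.8 ± 4.57 (Log2FC -0.98 ± 0.16 SE, edgeR, adjusted p = 0.00344). Its exons share 1151 bases with Rangrf on the opposite strand, and it is not stated whether the strand was used in counting, so that reads of the overlapping bases may have been credited to either gene. Rangrf had a Log2FC of 0.0046 (edgeR, adjusted p = 0.981).

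Slc25a34, a relative of Slc25a35 that is far more abundant in the heart, had normalised counts of 2127, 2151, 1737 and 2051 in NTG and of 1504, 1218 and 1630 in mNrf2-TG. The closest libraries were NTG 3 and mNrf2-TG 19, and the groups did not overlap (2017 ± 191 against 1451 ± 211, Log2FC -0.48 ± 0.11 SE, edgeR, adjusted p = 0.0177). Without NTG 1, NTG 2, mNrf2-TG 17 or mNrf2-TG 18 the adjusted p in edgeR was between 0.0515 and 0.056. Slc25a45 had normalised counts of 17.2 to 27.9 in NTG and 32.7 to 38.7 in mNrf2-TG, without overlap. It missed the threshold in the fit of all libraries and passed it in others, with an adjusted p of 0.0453 in limma-voom. Slc25a47 and Slc25a53 were not called.

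**Figure D4:**
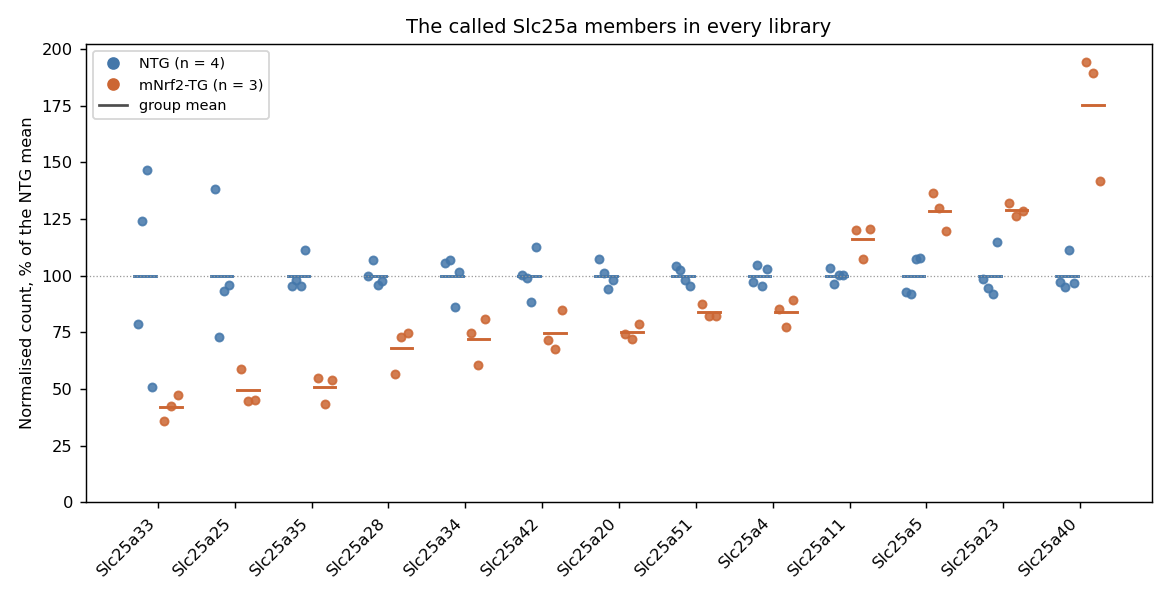
Normalised counts of the 13 called carriers in each library, as a percent of the NTG mean of the gene (vertical axis from 0), with 1 point per library and a line at the group mean (blue, 4 NTG, orange, 3 mNrf2-TG). Slc25a33 and Slc25a25 show the widest spread among NTG libraries, and no gene overlaps between the groups.

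The members related to uncoupling proteins, Slc25a14, Slc25a27 and Slc25a30, were not called, with Log2FCs of 0.17, 0.34 and 0.05 and at most 62 raw counts per library. Of them, 0 passed an unadjusted p of 0.05 in edgeR or an adjusted one in DESeq2 and limma-voom. At a background of 17.2% called by edgeR, 0 among so few carries no information on the group. Slc25a46, which acts in the dynamics of the outer membrane, had normalised counts of 967 to 1107 in NTG and 952 to 1095 in mNrf2-TG (Log2FC -0.01, 95% interval from -0.19 to 0.16).

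Beyond the family, 33 genes of mitochondrial transport and of carrier import were examined, of which 6 were higher and 1 lower. Called genes were thus 21.2% of these lists, near the background of 17.2%, or of 20.1% at a mean count of 10 or more. By direction, higher genes were 18.2% of the lists against a background of 8.48%, and lower ones 3.0% against 8.73%. The 4 listed genes with the carrier fold under other symbols, Ucp2, Ucp3, Mtch1 and Mtch2, were not called by edgeR, DESeq2 or limma-voom. Of these, 1 had an unadjusted p under 0.05 in edgeR, and 0 called among so few carries no information. Of 16 other transport genes of the inner membrane, 3 rose. Among them were Slc8b1, the sodium-calcium exchanger (52.1 ± 7.86 to 99.4 ± 6.14, Log2FC 0.92, edgeR, adjusted p = 0.00338), and Micu2, a regulator of the calcium uniporter (Log2FC 0.37, adjusted p = 0.01). Letm1, a cation exchanger, fell (Log2FC -0.26, edgeR, adjusted p = 0.0264). Vdac3, 1 of the 3 channels of the outer membrane, rose from 1685 ± 31.8 to 1961 ± 76.4 (Log2FC 0.22, edgeR, adjusted p = 0.0368). Of 10 genes for the import of carriers, the translocase subunits Timm22 (Log2FC 0.49, edgeR, adjusted p = 0.0178) and Timm9 (Log2FC 0.42, adjusted p = 0.0469) rose. On leaving out single libraries, Slc8b1 and Micu2 stayed under the threshold throughout, whereas the adjusted p in edgeR reached 0.0861 for Letm1, 0.126 for Vdac3, 0.0756 for Timm22 and 0.171 for Timm9.

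Other cell types and tissues were followed by fixed marker lists. Of 5 endothelial markers, Kdr was higher and Pecam1 and Cdh5 lower, with sums of 5460 to 6174 in NTG and 5053 to 5399 in mNrf2-TG. Of 6 skeletal muscle genes, Myh1 and Myh4 were lower, with sums of 648 to 1244 and 428 to 663. Nppa was higher, with normalised counts of 670 to 1416 in NTG and 1986 to 3865 in mNrf2-TG. It was listed here for the atrium, whereas the paper counts it among fetal cardiac genes reactivated in structural change of the heart. Myl4 and Myl7, also listed for the atrium, were not called, and Sln was not in the count table. Myl7 had at most 4 reads in NTG libraries and at most 1 in transgenic ones. The sums over the 3 atrial genes, 685 to 1447 and 2026 to 3888, were therefore mostly Nppa. Of 4 smooth muscle, 3 adipocyte and 3 brown fat genes, 0 were called by edgeR, with 2 brown fat genes at an unadjusted p under 0.05, and limma-voom called 1 smooth muscle gene. Adipocyte sums were 0 to 3.6 in NTG and 1.08 to 19.97 in mNrf2-TG, brown fat sums 349 to 569 and 351 to 411, and smooth muscle sums 1669 to 8669 and 5973 to 9953. The highest smooth muscle sum in NTG was mostly Acta2 in NTG 3, at 7947 normalised counts. Acta2 had 1026, 1092 and 1886 in NTG 1, NTG 2 and NTG 4, and 9353, 8266 and 5470 in mNrf2-TG 17 to 19. The part of these lists in the carrier results was not tested.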

How the data were processed

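Poly(A)-selected RNA of whole hearts (4 NTG and 3 mNrf2-TG libraries) was sequenced by the authors as single reads from stranded libraries, aligned with Novoalign 2.08.01 and deposited as raw read counts per gene. The methods name hg19 for the index and mm10 (GRCm38) for mapping, and the counting program and its use of strand are not given in the sources used here. The deposited rlog values and the authors' DESeq2 1.32.0 comparison (fold changes and p-values) were not used. Of 14665 entries, 24 repeated a gene with identical counts and were removed, and the 14637 genes with a summed count above 1 were tested. Groups were compared with edgeR 4.0.16 (TMM, quasi-likelihood test, R 4.3.3), with Benjamini-Hochberg adjustment over all genes tested. The SE of a Log2FC is its size over the square root of the F statistic. Genes with a few counts per library carry no information on moderate changes. Gene positions and exon lengths came from GENCODE M21 (GRCm38).

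Alternatives were DESeq2 1.42.0, limma-voom (limma 3.58.1), the library total alone or DESeq2 size factors as the scale in edgeR, filterByExpr, at least 10 counts in every library of 1 group, no filter, a pseudocount of 0.5 and a TMM-scaled denominator for ratios and shares, and leaving out each library. Using all deposited entries for results other than the number of higher carriers, and the count over all genes under every setting, were added after seeing the data. Permutation tests and plots were made in Python 3.11.15 (matplotlib 3.10.9, scipy 1.17.1, pandas 2.3.3, numpy 2.4.6). Scripts were tested on simulated data. The members and gene lists were chosen with earlier results of these data known. Every member could be named, with values in every library for called members and for Slc25a3, Slc25a4, Slc25a5, Slc25a11, Slc25a12, Slc25a13, Slc25a20, Slc25a28, Slc25a37, Slc25a39 and Slc25a40, and genes of related lists were named where called, except that some results are not reported here. The uncalled genes of the carrier fold, Slc25a46, Acta2, the members nearest to the threshold and those with wide spread were given values after these were seen. Slc25a2, Slc25a21, Slc25a41, Slc25a43, Slc25a48, Slc25a52 and Slc25a54 were not analysed here.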

Additional observations from a re-analysis of the deposited data

Results flagged for a closer look

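In NTG, Slc25a40 had a normalised count of 94.9 in NTG 3 against 81.0 to 82.7 in the other control libraries. The gap to its nearest neighbour was 0.874 of the range of the group, above the 95% critical value of Dixon's test for 4 libraries. Chance gives such a gap in about 1 in 20 groups, and 41 groups were examined. Without NTG 3 the gene was still called.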

How the results depend on the processing

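Over all genes the number called was 2417 to 2655 across the alternatives in test, scale, filter and entries, against 2519, and 1373 to 2950 when single libraries were left out. Higher carriers numbered 1 to 5 and lower carriers 3 to 9 when single libraries were left out, and 3 to 6 and 7 to 9 under the other alternatives. In the related lists the higher genes numbered 2 to 5 and the lower ones 0 to 2 without single libraries, and with the library total alone 0 were lower. Over all members and alternatives, 543 Log2FC values kept their direction and side of the threshold, 40 lost the call, 7 gained it and 17 changed sign, the last only for uncalled members. With the library total alone the Log2FC was 0.026 for Slc25a17 and 0.014 for Slc25a46. On leaving out single libraries, the members that changed sign ranged from -0.072 to 0.30 for Slc25a14, -0.059 to 0.062 for Slc25a17, -0.31 to 0.13 for Slc25a22, -0.050 to 0.18 for Slc25a30, -0.020 to 0.048 for Slc25a32, -0.20 to 0.0079 for Slc25a38, -0.079 to 0.033 for Slc25a46 and -0.52 to 0.027 for Slc25a47. The cause was not tested. The library total moved the median Log2FC of all genes to 0.03. No paired analysis was possible because the groups share no replicate numbers. Counts limit Slc25a18, Slc25a31 and Slc25a53, whose 95% intervals are wide.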
